A study of Homo sapiens with 6 samples.

Results

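The 42 genes described here encode enzymes and regulators of cholesterol and fatty acid synthesis whose transcription is linked to the sterol regulatory element binding proteins (SREBPs). They were listed by symbol, from acetyl-CoA through the mevalonate and sterol steps and from acetyl-CoA to elongated, desaturated and activated fatty acids, and kept where their mean over the 6 libraries was at least 10. All 42 were among the 17202 genes of the deposited table, and all 42 were also among the 13465 genes tested. The 2 with the lowest means, ACSL1 and ACSS2, lay above the minimum in every library. RNA was sequenced from DND41 cells, a human line of T-cell acute lymphoblastic leukaemia, in 3 libraries of cells given MB1-47 and 3 of cells given the solvent DMSO, both for 24 h in RPMI medium with fetal bovine serum. The series title calls MB1-47 a mitochondrial uncoupling drug, that is, a compound that lets protons re-enter the mitochondrial matrix without driving ATP synthesis. Its dose is written as 4 mM in the labels, and that unit could not be checked. The labels say only that cells were plated in triplicates, so how far the replicates were separate cultures is not known, and every p-value reflects library spread that may be technical. All libraries come from a single cell line grown in serum, which supplies cholesterol and fatty acids.

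SREBPs are transcription factors made as precursors in the endoplasmic reticulum membrane. When membrane sterol is low, the escort protein SCAP carries them to the Golgi, where proteases release the active domain; when sterol is high, the INSIG proteins hold SCAP back. SREBP-2, the product of SREBF2, is best known for driving cholesterol synthesis genes, and the SREBP-1c form made from SREBF1 for driving fatty acid synthesis genes. Proliferating lymphoid cells use both pathways to build membranes.

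Values are the authors' normalized counts, a difference is the log2 fold change of MB1-47 against DMSO ± SE on log2(value + 1), and a group level is the mean ± SD of 3 libraries. A gene was called lower or higher where its adjusted p from limma's moderated test over all 13465 genes was under 0.05. Normalized totals ran from 28323706 to 32667526 per library; whole reads could not be recovered from the values, so the depth is unknown and no counting intervals are given. Pearson correlations of log2 values were 0.955 to 0.968 within groups and 0.927 to 0.948 between groups, and the second principal component, with 18.5% of the variance, set DMSO library 1 apart. The line's identity was read from T lineage markers, of which 8 of 9 listed were matched. CD3E was at 10261 ± 766 in MB1-47 cells against 11497 ± 573 in DMSO cells. Of the 8 markers, 5 were lower (62.5%, against 19.8% of all genes tested). The largest fall was in CD7, at 2282 ± 181 in MB1-47 cells against 9248 ± 1039 in DMSO cells. CD3E, TLX3 (0.48 ± 0.19) and CD5, with a mean of only 13.5, did not pass. Of B lineage markers CD79A was abundant in both groups, at 6825 ± 391 in MB1-47 cells and 16526 ± 573 in DMSO cells, whereas the myeloid markers CD14 and LYZ were below the minimum for testing and CD14 was at 0 in the MB1-47 libraries. The summed T lineage level ran from 24387 to 28312 normalized counts in the MB1-47 libraries, against 45286 to 49249 in the DMSO libraries. These are relative levels in bulk RNA: fewer cells that express a gene and less of its RNA per cell cannot be told apart. The part that the change in lineage markers has in the lipid gene differences was not tested.

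Among the 42 genes, 20 were lower with MB1-47, 3 were higher and 19 did not pass the test. Over all genes tested, 19.8% were lower and 18.3% higher, 38.1% in either direction. The share of lipid genes that were lower, 47.6%, was thus above the background and the share that were higher, 7.14%, below it. The members were chosen with earlier results of these data known, so these shares are a description and not a test. The median log2 fold change was -0.35 over the 42 genes and 0.02 over all genes tested. The 3 MB1-47 libraries did not overlap the 3 DMSO libraries in 30 of the 42 genes (71.4%), against 49.3% of all genes tested. With library totals made equal, the median of all genes moved to 0.15, and the 42 genes then held 17 lower and 4 higher, against 2061 lower and 3336 higher in the whole table. As a share of all normalized counts, the 42 genes took 0.481% ± 0.00804 in MB1-47 cells and 0.613% ± 0.00810 in DMSO cells. The 18 cholesterol enzymes took 0.125% ± 0.00111 in MB1-47 cells and 0.193% ± 0.00704 in DMSO cells. The 17 genes of fatty acid synthesis, elongation, desaturation and activation took 0.249% ± 0.00497 in MB1-47 cells and 0.321% ± 0.00976 in DMSO cells.

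**Figure D1:**
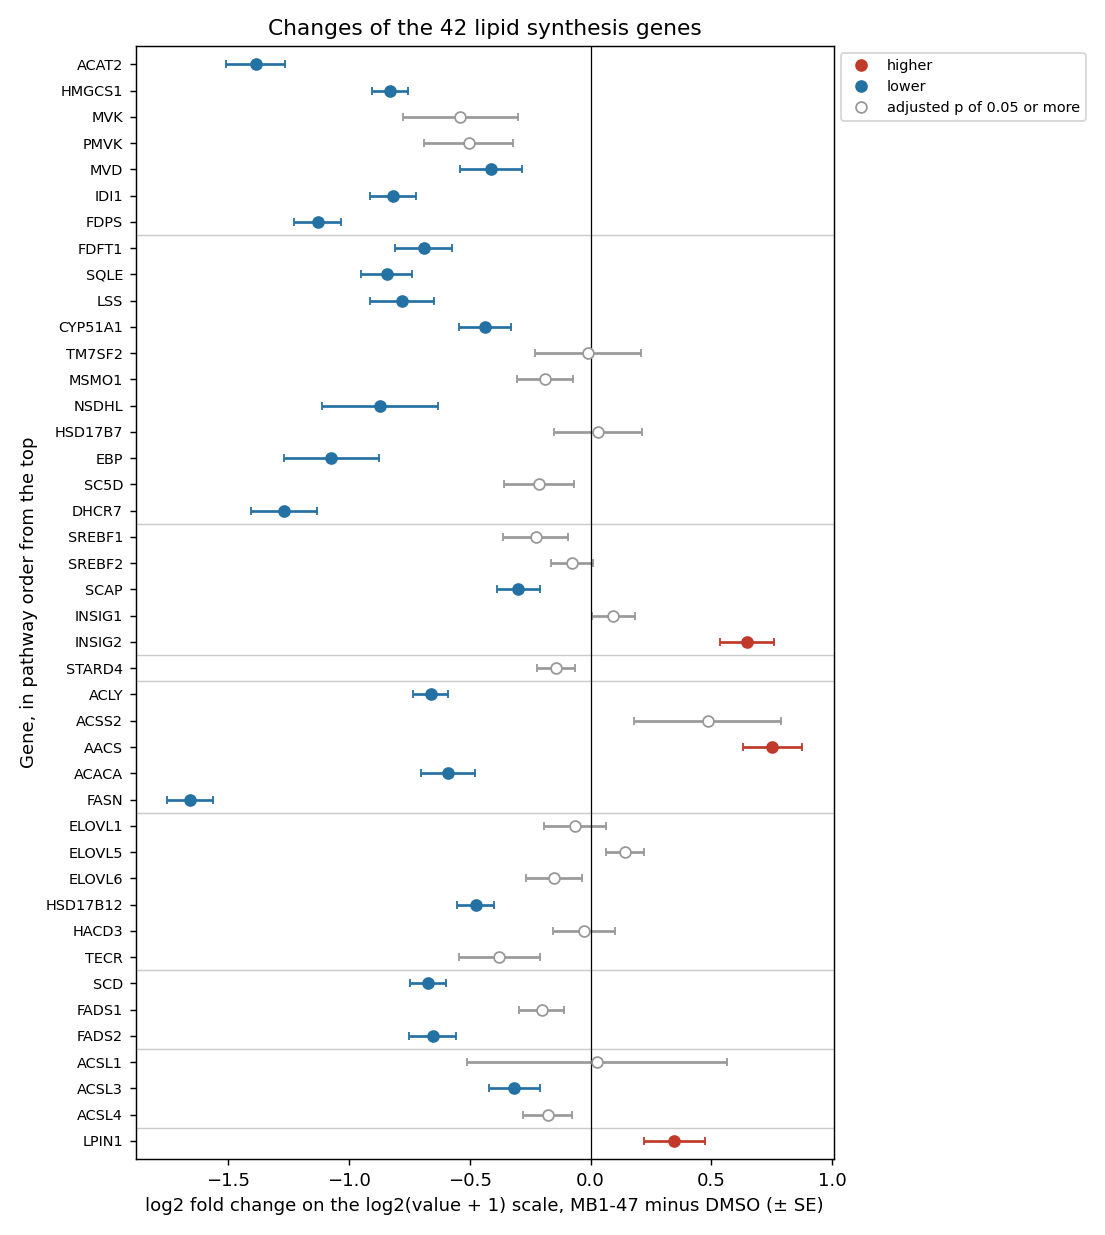
Log2 fold change of MB1-47 against DMSO ± SE (x axis) for the 42 genes, in pathway order down the page; filled points passed the test and open points did not. Most cholesterol genes lie left of 0, 20 of 42 genes were lower at an adjusted p under 0.05, and INSIG2, AACS and LPIN1 were the 3 that were higher.

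The early mevalonate steps convert acetyl-CoA to farnesyl diphosphate, the precursor of sterols, prenyl groups, dolichol and the ubiquinone tail. Of their 7 genes, 5 were lower (71.4%, against 19.8% of all genes tested) and none higher. The median log2 fold change was -0.82. ACAT2, the cytosolic thiolase that joins the first pair of acetyl-CoA units, lies on chr6:159760328-159779055 in GENCODE 29 (GRCh38). It had 1160, 1372 and 1475 normalized counts in the MB1-47 libraries, against 3573, 3095 and 3788 in the DMSO libraries. The highest MB1-47 library lay below the lowest DMSO library, and the level was 2.61 times lower (log2 fold change -1.38 ± 0.12, adjusted p = 8.7e-06). FDPS, farnesyl diphosphate synthase, had 2258, 2395 and 2288 normalized counts in the MB1-47 libraries, against 5174, 4528 and 5520 in the DMSO libraries. Its groups lay far apart, at 2.19 times lower with MB1-47 (-1.13 ± 0.10, adjusted p = 7.9e-06). HMGCS1, the cytosolic HMG-CoA synthase, had 6378, 6629 and 6446 normalized counts in the MB1-47 libraries, against 11234, 11199 and 12147 in the DMSO libraries. The MB1-47 libraries were close to each other and all below the DMSO libraries, at 1.78 times lower (-0.83 ± 0.08, adjusted p = 1.1e-05).

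IDI1, the isomerase that makes dimethylallyl diphosphate, was 1.76 times lower, at 2279 ± 180 with MB1-47 against 4008 ± 136 with DMSO (adjusted p = 5.9e-05). The kinases and decarboxylase between HMGCS1 and IDI1 differed less. MVD, mevalonate diphosphate decarboxylase, averaged 831 ± 79.9 with MB1-47 and 1104 ± 76.4 with DMSO (-0.41 ± 0.13, adjusted p = 0.0265), and this call was lost without MB1-47 library 1 (adjusted p = 0.0964), without DMSO library 1 (0.0808) or without DMSO library 3 (0.0701), and with equal library totals (0.0944). PMVK, phosphomevalonate kinase, averaged 461 ± 86.5 with MB1-47 and 649 ± 80.5 with DMSO, with no overlap but an adjusted p of 0.0510; it passed without DMSO library 1 (0.0350), with a minimum mean of 50 (0.0421) and with quantile normalization (0.0416). MVK, mevalonate kinase, averaged 218 ± 54.3 with MB1-47 and 313 ± 44.8 with DMSO, and its groups overlapped (-0.54 ± 0.24, adjusted p = 0.0983); without MB1-47 library 3 the adjusted p was 0.0499.

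The late steps start with squalene and end at cholesterol. Of 11 late sterol genes, 7 were lower (63.6%, against 19.8% of all genes tested) and none higher. The median log2 fold change was -0.69. DHCR7, the 7-dehydrocholesterol reductase that acts at the end of the pathway, had 1004, 807 and 741 normalized counts in the MB1-47 libraries, against 1829, 2172 and 2114 in the DMSO libraries. Every MB1-47 library was well below every DMSO library, at 2.41 times lower (-1.27 ± 0.14, adjusted p = 3.9e-05). EBP, the sterol isomerase that moves the double bond from C8 to C7, had 461, 694 and 502 normalized counts in the MB1-47 libraries, against 1413, 916 and 1157 in the DMSO libraries. Its libraries were more scattered but did not overlap, at 2.10 times lower (-1.07 ± 0.20, adjusted p = 0.00134). NSDHL, the dehydrogenase that takes part in removing the C4 methyl groups, had 130, 188 and 227 normalized counts in the MB1-47 libraries, against 318, 327 and 328 in the DMSO libraries. The DMSO libraries nearly coincided and all lay above the MB1-47 libraries (-0.87 ± 0.24, adjusted p = 0.0144).

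SQLE, squalene epoxidase, a rate-limiting step beyond squalene, was 1.79 times lower (-0.84 ± 0.11, adjusted p = 0.000106). LSS, which closes the ring to lanosterol, was 1.72 times lower, at 1010 ± 40.1 with MB1-47 against 1749 ± 286 with DMSO (adjusted p = 0.000784). FDFT1, squalene synthase, was 1.61 times lower (-0.69 ± 0.12, adjusted p = 0.000791) and CYP51A1, lanosterol demethylase, was 1.35 times lower (-0.44 ± 0.11, adjusted p = 0.00779). The 4 late genes that did not pass were MSMO1 (-0.19 ± 0.12), SC5D (-0.21 ± 0.15), TM7SF2 (-0.01 ± 0.22) and HSD17B7 (0.03 ± 0.18). MSMO1 and NSDHL both act in C4 demethylation; MSMO1 averaged 2241 ± 251 with MB1-47 and 2553 ± 271 with DMSO, and its libraries overlapped. TM7SF2, a sterol C14 reductase, averaged 426 ± 87.9 with MB1-47 and 431 ± 96.7 with DMSO. The sign of TM7SF2 turned with other scalings, to 0.12 with equal library totals.

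**Figure D2:**
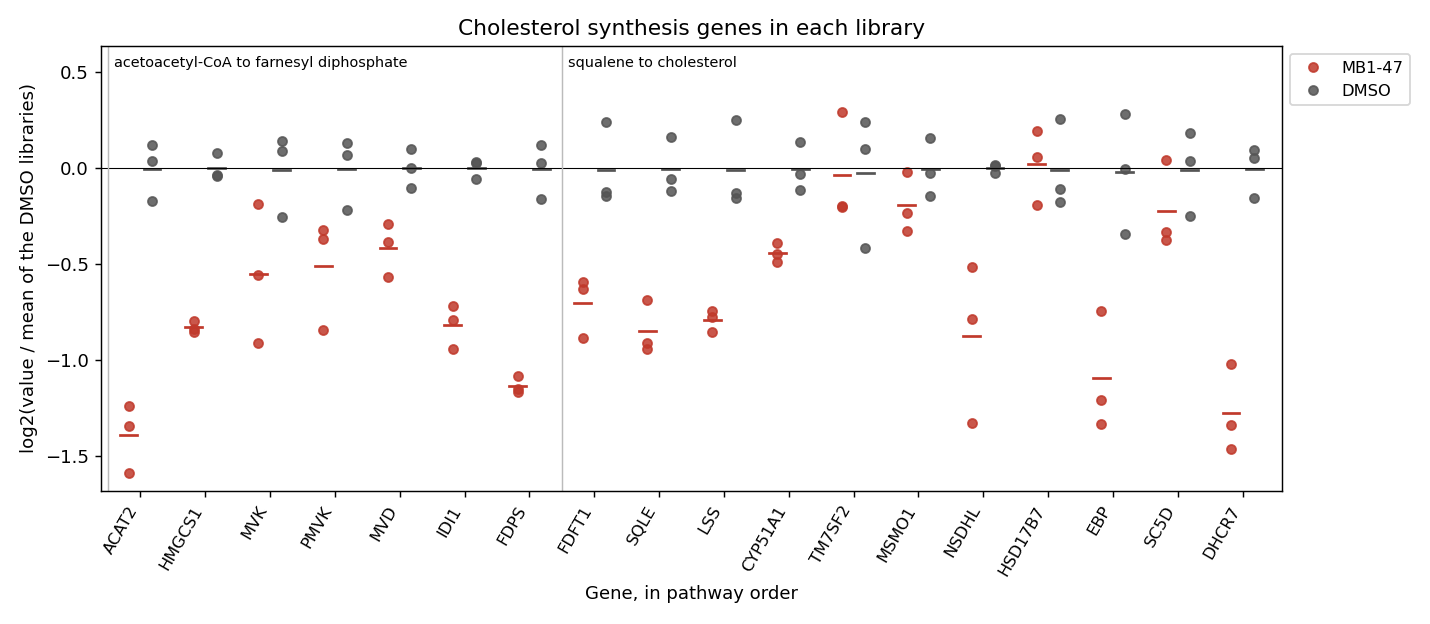
Log2 ratio of each library's normalized count to the mean of the DMSO libraries (y axis) for the 7 early mevalonate and 11 late sterol genes in pathway order (x axis), MB1-47 left of DMSO in each gene; points are libraries and horizontal bars the means of log2 values. In 13 of the 18 genes (72.2%, against 49.3% of all genes tested) the MB1-47 libraries did not overlap the DMSO libraries. Where they did not, MB1-47 lay below.

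The log2 difference averaged -0.80 over the early genes and -0.58 over the late genes. The mean log2 level of the 7 early genes minus that of the 11 late genes was -0.08, 0.20 and 0.26 in the MB1-47 libraries, against 0.27, 0.41 and 0.36 in the DMSO libraries. All 3 MB1-47 libraries were below the DMSO libraries, MB1-47 library 1 by the most. The group means were 0.12 ± 0.18 with MB1-47 and 0.35 ± 0.07 with DMSO, a difference of -0.23, and without MB1-47 library 1 it was -0.12. No test was run on this difference of averages over chosen genes. Over the 18 cholesterol enzymes together, 12 were lower (66.7%, against 19.8% of all genes tested) and none higher (median -0.74). With equal library totals 11 were lower and none higher (median -0.61), where the whole table held 2061 lower and 3336 higher.

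Promoter sequence was read for these genes because SREBPs act together with NF-Y, a factor that binds the CCAAT box, and SP1. RefSeq promoter windows on GRCh38.p14, from 250 bases before to 50 after a start, were matched for 37 of the 42 genes, in 56 windows, some of which overlap within a gene. FDFT1, SQLE, ACAT2, FASN and HSD17B12 had no match. Stretches upstream of a start are shown 5′ to 3′ on the gene's strand, to show stretches with and without the box. HMGCS1, FDPS, NSDHL, DHCR7, ACLY, SCD and FADS2 were lower, MSMO1 did not pass the test, and INSIG2 and AACS were higher. Capitals mark CCAAT or its reverse complement ATTGG; in NSDHL a pair on opposite strands overlaps, and the stretches of FADS2, INSIG2 and AACS hold none, although the rest of the FADS2 window holds one.
HMGCS1 (chr5:43313513-43313662, minus strand): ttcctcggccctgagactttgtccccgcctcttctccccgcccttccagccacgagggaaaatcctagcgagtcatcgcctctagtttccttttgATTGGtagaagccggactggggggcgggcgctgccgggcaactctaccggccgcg
FDPS (chr1:155308616-155308747, plus strand): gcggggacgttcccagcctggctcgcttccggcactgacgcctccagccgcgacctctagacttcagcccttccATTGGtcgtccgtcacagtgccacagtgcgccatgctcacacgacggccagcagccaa
NSDHL (chrX:152830813-152830966, plus strand): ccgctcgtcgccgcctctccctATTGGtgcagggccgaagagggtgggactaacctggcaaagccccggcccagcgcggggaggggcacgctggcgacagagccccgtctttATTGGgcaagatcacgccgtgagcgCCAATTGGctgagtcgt
DHCR7 (chr11:71448436-71448615, minus strand): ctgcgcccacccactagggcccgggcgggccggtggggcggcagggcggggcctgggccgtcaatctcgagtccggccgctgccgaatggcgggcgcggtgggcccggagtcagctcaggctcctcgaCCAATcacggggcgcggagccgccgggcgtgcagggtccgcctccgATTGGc
ACLY (chr17:41919023-41919202, minus strand): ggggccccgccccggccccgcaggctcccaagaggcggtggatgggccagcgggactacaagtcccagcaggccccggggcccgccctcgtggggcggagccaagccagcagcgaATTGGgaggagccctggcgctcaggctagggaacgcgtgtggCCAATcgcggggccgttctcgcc
SCD (chr10:100346983-100347123, plus strand): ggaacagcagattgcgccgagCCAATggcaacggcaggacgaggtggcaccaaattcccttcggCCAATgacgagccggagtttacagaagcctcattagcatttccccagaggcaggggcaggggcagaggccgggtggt
FADS2 (chr11:61816154-61816255, plus strand): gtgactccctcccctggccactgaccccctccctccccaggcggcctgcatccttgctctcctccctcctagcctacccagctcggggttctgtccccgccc
MSMO1 (chr4:165327443-165327622, plus strand): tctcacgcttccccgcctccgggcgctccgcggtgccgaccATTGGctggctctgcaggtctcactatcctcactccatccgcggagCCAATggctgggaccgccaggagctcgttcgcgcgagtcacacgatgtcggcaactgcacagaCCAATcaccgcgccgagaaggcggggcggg
INSIG2 (chr2:118088272-118088451, plus strand): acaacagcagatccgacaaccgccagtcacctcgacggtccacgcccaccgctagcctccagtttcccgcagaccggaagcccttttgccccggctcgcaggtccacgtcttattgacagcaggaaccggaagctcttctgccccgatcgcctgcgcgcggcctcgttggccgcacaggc
AACS (chr12:125065199-125065378, plus strand): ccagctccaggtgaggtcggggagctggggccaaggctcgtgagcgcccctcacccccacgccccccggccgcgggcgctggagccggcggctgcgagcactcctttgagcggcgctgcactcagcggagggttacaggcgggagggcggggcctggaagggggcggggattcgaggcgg

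CCAAT was searched on both strands and was present in 32 of the 56 windows (57.1%), against 34.6% of the 35116 windows of all promoters and 34.8% of the 14310 windows of tested genes. By gene, it was present for 39.7% of all genes with a window and 43.4% of tested genes. Among members it was present for 13 of 15 lower genes, 14 of 19 that did not pass and none of the 3 higher ones. The higher ones, INSIG2, AACS and LPIN1, had 6 windows and are too few to set against those shares. At least a pair of boxes lay in 33.9% of the member windows, against 10.8% of all. The cholesterol enzymes had the box in 15 of 20 windows (75.0%), for 13 of 15 genes. Among them it was present for 8 of 9 that were lower and 5 of 6 that were not, so it did not separate the cholesterol genes that fell from those that did not pass. SP1's GGGCGG was present in 83.9% of member windows, 64.4% of tested windows and 45.0% of all windows. The E-box CACGTG was present in 10.7% of member windows, 9.24% of tested windows and 7.26% of all windows. The sterol regulatory element, searched as TCACNCCAC on both strands, was found in 2 windows (3.57%, against 1.13% of all), in SREBF2 at position -133 from its start and in one ACSL1 window. A match describes letters in a window and is not a binding site measured here. Only the letters given were searched, so a window without a match may still hold a variant of the element.

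Among 5 control genes, SCAP was lower, INSIG2 was higher and 3 did not pass the test, a share called near the 38.1% of all genes tested; the median log2 fold change was -0.08. SREBF2 had 8894, 9755 and 9157 normalized counts in the MB1-47 libraries, against 8782, 10403 and 10211 in the DMSO libraries. The groups overlapped (-0.08 ± 0.09, adjusted p = 0.529). SREBF1 had 797, 833 and 781 normalized counts in the MB1-47 libraries, against 907, 1078 and 850 in the DMSO libraries. The groups did not overlap but lay close, and the test was not passed (-0.23 ± 0.13, adjusted p = 0.212). SREBP activity depends on cleavage of the protein, which mRNA levels do not measure.

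SCAP, the escort of SREBPs, had 3725, 3713 and 3832 normalized counts in the MB1-47 libraries, against 4340, 4510 and 5052 in the DMSO libraries. All MB1-47 libraries were lower (-0.30 ± 0.09, adjusted p = 0.0206), and the call was lost without MB1-47 library 1 (0.0568), without DMSO library 3 (0.0953), with equal library totals (0.140) and without the intensity trend (0.0643). INSIG1, itself a classical SREBP target as well as an inhibitor, had 6004, 6477 and 6341 normalized counts in the MB1-47 libraries, against 6116, 5287 and 6269 in the DMSO libraries. The groups overlapped (0.09 ± 0.09, adjusted p = 0.447). INSIG2, its paralog, had 1664, 1445 and 1612 normalized counts in the MB1-47 libraries, against 1052, 961 and 997 in the DMSO libraries. Every MB1-47 library was above every DMSO library, 1.57-fold higher (0.65 ± 0.11, adjusted p = 0.000987). The INSIG1 to INSIG2 ratio, on the log2 scale, was 1.85, 2.16 and 1.98 in the MB1-47 libraries, against 2.54, 2.46 and 2.65 in the DMSO libraries. All MB1-47 libraries were lower, by 1.47 times on average. Its two-sided exact permutation p was 0.1, the lowest that 3 against 3 libraries allow, and 0.4 after adjustment over 4 ratios. For SREBF1 to SREBF2 the ratio differed by -0.15 (exact permutation p = 0.4).

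**Figure D3:**
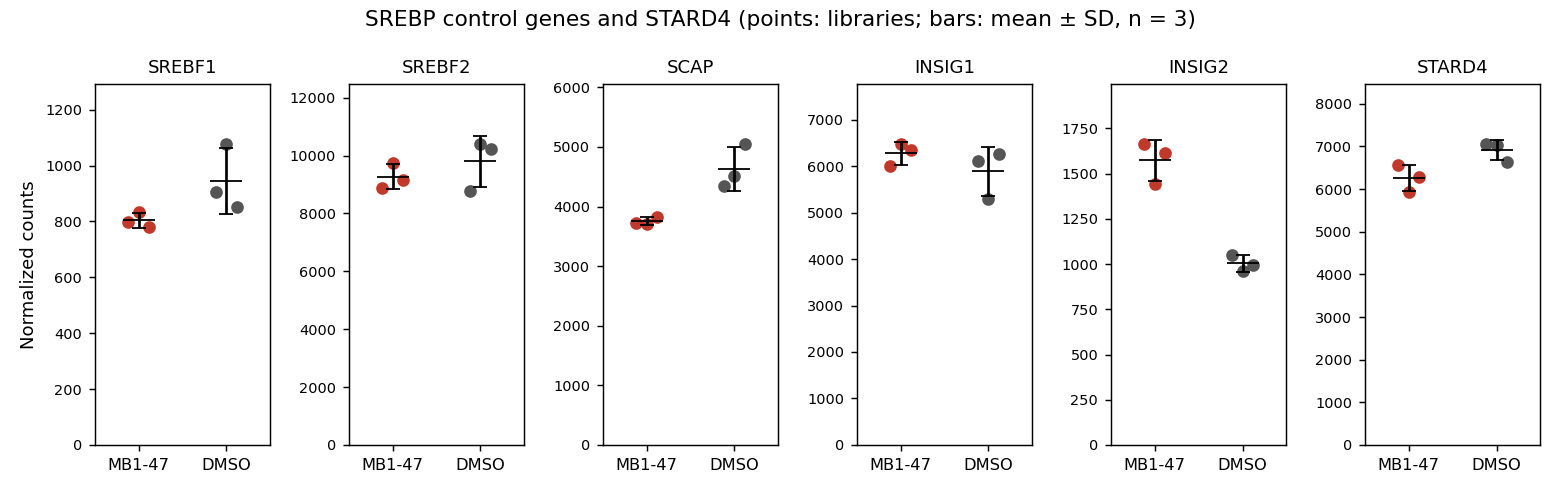
Normalized counts (y axes from 0, a scale for each gene) of SREBF1, SREBF2, SCAP, INSIG1, INSIG2 and STARD4, with MB1-47 left of DMSO; points are libraries and bars the mean ± SD (n = 3). INSIG2 was above its DMSO libraries in all 3 MB1-47 libraries, whereas SREBF2 and INSIG1 overlapped between the groups.

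STARD4, a soluble protein that moves sterol between membranes, had 6556, 5941 and 6291 normalized counts in the MB1-47 libraries, against 7060, 7027 and 6635 in the DMSO libraries. The groups did not overlap but the test was not passed (-0.14 ± 0.08, adjusted p = 0.188).

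Fatty acid synthesis takes citrate or acetate to acetyl-CoA, carboxylates it to malonyl-CoA and builds palmitate on fatty acid synthase. Of its 5 genes here, 3 were lower, 1 was higher and 1 did not pass. That is 60% lower and 20% higher, against 19.8% and 18.3% of all genes tested, so the share higher is near the background. FASN, fatty acid synthase, on chr17:82078333-82098332 in GENCODE 29 (GRCh38), had 3659, 4223 and 4007 normalized counts in the MB1-47 libraries, against 11952, 13847 and 11727 in the DMSO libraries. The highest MB1-47 library was far below the lowest DMSO library, 3.15 times lower on average (-1.66 ± 0.09, adjusted p = 6.6e-07), and only 2.53% of all genes tested had a lower log2 fold change. ACLY, ATP citrate lyase, which makes cytosolic acetyl-CoA, had 9465, 9984 and 10236 normalized counts in the MB1-47 libraries, against 15443, 15803 and 15661 in the DMSO libraries. The DMSO libraries nearly coincided and all lay above, with MB1-47 1.58 times lower (-0.66 ± 0.07, adjusted p = 3.8e-05). ACACA, acetyl-CoA carboxylase 1, averaged 2908 ± 344 with MB1-47 and 4369 ± 391 with DMSO (-0.59 ± 0.11, adjusted p = 0.00152). AACS, which activates acetoacetate for sterol and fatty acid synthesis, went the other way. It had 1543, 1333 and 1411 normalized counts in the MB1-47 libraries, against 907, 778 and 860 in the DMSO libraries. The groups did not overlap, 1.68-fold higher with MB1-47 (0.75 ± 0.12, adjusted p = 0.000584). ACSS2, which makes acetyl-CoA from acetate, averaged 128 ± 34.8 with MB1-47 and 89.6 ± 7.71 with DMSO, with no overlap and an adjusted p of 0.239.

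**Figure D4:**
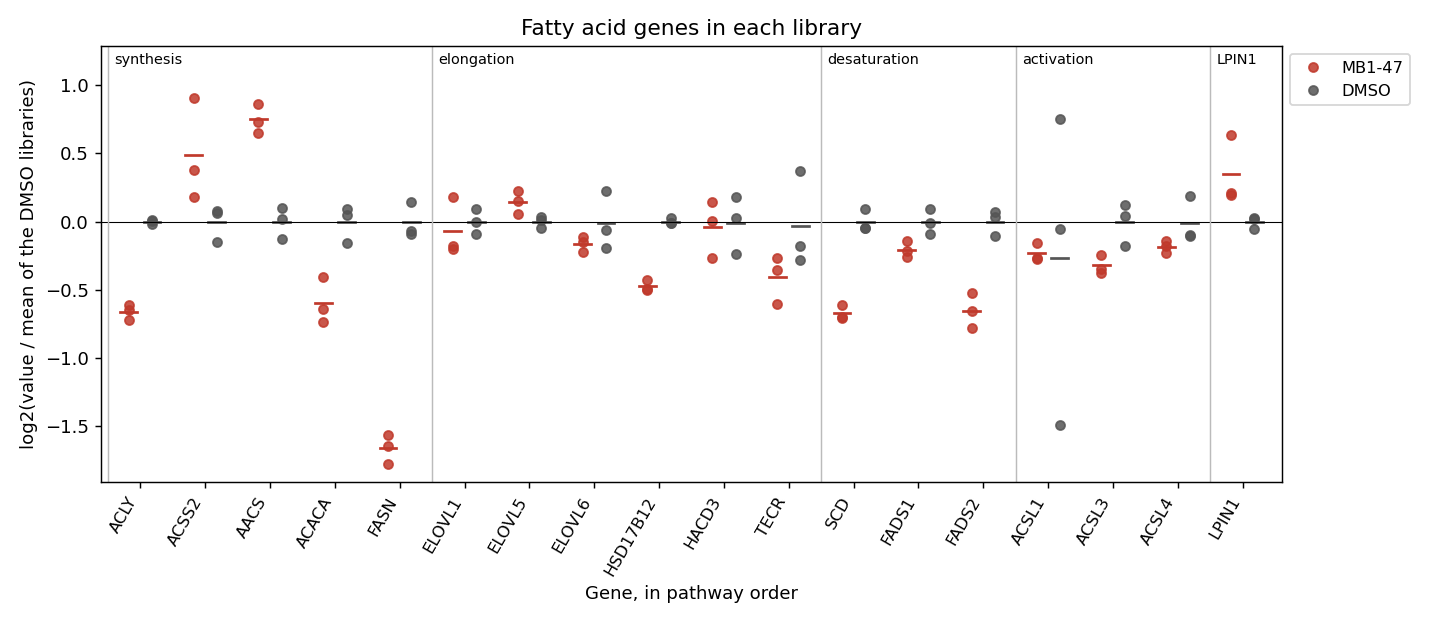
Log2 ratio of each library's normalized count to the mean of the DMSO libraries (y axis) for the 17 genes of fatty acid synthesis, elongation, desaturation and activation and for LPIN1 (x axis); MB1-47 left of DMSO, points are libraries and horizontal bars the means of log2 values. FASN shows the widest gap downward, and AACS lies above its DMSO libraries.

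Elongation adds carbon pairs to fatty acids in the endoplasmic reticulum. Of its 6 genes, 1 was lower and none higher, and 16.7% lower is near the 19.8% of all genes tested. HSD17B12, the 3-ketoacyl-CoA reductase, had 4737, 4960 and 4730 normalized counts in the MB1-47 libraries, against 6618, 6630 and 6788 in the DMSO libraries. Replicates of either group lay close together and the groups did not overlap (-0.47 ± 0.08, adjusted p = 0.000578). The others of this cycle did not pass: the elongases ELOVL1 (-0.06 ± 0.13), ELOVL5 (0.14 ± 0.08) and ELOVL6 (-0.15 ± 0.11), the dehydratase HACD3 (-0.03 ± 0.13) and the reductase TECR (-0.38 ± 0.17). ELOVL5, which elongates polyunsaturated acids, passed with equal library totals (0.27, adjusted p = 0.00697) and with quantile normalization (0.27, adjusted p = 0.00725). The ELOVL6 to ELOVL5 log2 ratio differed by -0.29 (exact permutation p = 0.2).

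Desaturases place double bonds. SCD, which makes oleate from stearate, had 15172, 15224 and 16161 normalized counts in the MB1-47 libraries, against 26354, 23916 and 23921 in the DMSO libraries. The groups lay apart, 1.59 times lower with MB1-47 (-0.67 ± 0.07, adjusted p = 4.5e-05). FADS2, the Δ6 desaturase that starts polyunsaturated synthesis, had 2983, 3566 and 3254 normalized counts in the MB1-47 libraries, against 4761, 5388 and 5247 in the DMSO libraries. Again no library overlapped, and the level was 1.57 times lower (-0.65 ± 0.10, adjusted p = 0.000326). FADS1, the Δ5 desaturase, averaged 2829 ± 119 with MB1-47 and 3259 ± 212 with DMSO (-0.20 ± 0.09, adjusted p = 0.109).

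Acyl-CoA synthetases activate free fatty acids for use. ACSL3 had 2221, 2272 and 2441 normalized counts in the MB1-47 libraries, against 2548, 2963 and 3142 in the DMSO libraries. The groups did not overlap (-0.31 ± 0.11, adjusted p = 0.0357), but leaving out 1 library lost the call for all except DMSO library 1, with adjusted p-values of 0.103, 0.0759 and 0.0519 without MB1-47 libraries 1, 2 and 3, and 0.0914 and 0.141 without DMSO libraries 2 and 3. It was also lost with trimmed-mean factors (0.0502), equal library totals (0.198) and no trend (0.0900). ACSL4, which prefers arachidonate, averaged 3364 ± 98.6 with MB1-47 and 3819 ± 461 with DMSO and did not pass (adjusted p = 0.199). ACSL1 was the lowest of the 42 per kilobase, at 52.5 ± 2.43 with MB1-47 and 61.6 ± 40.9 normalized counts with DMSO. LPIN1, a phosphatidate phosphatase that makes diacylglycerol, had 2651, 3610 and 2679 normalized counts in the MB1-47 libraries, against 2366, 2234 and 2357 in the DMSO libraries. The groups did not overlap, with MB1-47 library 2 highest (0.35 ± 0.12, adjusted p = 0.0482), but without that library the difference was 0.20 (adjusted p = 0.158), and without DMSO libraries 1, 2 and 3 the adjusted p was 0.0750, 0.117 and 0.0996. The LPIN1 call was also lost with no filter (0.0512), quantile normalization (0.0580) and no trend (0.135).

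The averages of fatty acid synthesis and of desaturation with activation moved by nearly the same amount, -0.33 each. Taken apart, desaturation averaged -0.51 and activation -0.16. The SD over the DMSO libraries was 0.36 for activation and 0.04 for desaturation. Activation includes the low gene ACSL1, at 59.2, 104 and 21.9 normalized counts in the DMSO libraries. The mean log2 level of the 5 synthesis genes minus that of the 6 genes of desaturation and activation was -0.20, -0.14 and 0.01 in the MB1-47 libraries, against -0.15, -0.25 and 0.07 in the DMSO libraries. The libraries overlapped, and the group means differed by -0.00. This value depended on AACS and ACSS2, whose differences were positive where those of ACLY, ACACA and FASN were negative: with AACS left out the difference was -0.27, and with both left out it was -0.64, at 1.20, 1.31 and 1.36 in the MB1-47 libraries against 1.90, 1.83 and 2.06 in the DMSO libraries. These exclusions were chosen after the values were seen and no test was run on them. Over the 17 genes, 7 were lower and 1 was higher (41.2% and 5.88%), with a median of -0.20. Among all genes tested 19.8% were lower and 18.3% higher. With equal library totals 6 were lower and 2 higher (median -0.07), where the whole table held 2061 lower and 3336 higher.

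Levels were also set beside each other per kilobase of the longest principal GENCODE 29 transcript, in normalized counts. Which transcripts these cells express was not examined, so the order of genes depends on that choice of length. FDFT1 was highest in both groups, at 3896 per kilobase in MB1-47 cells and 6314 in DMSO cells. SCD was at 2894 per kilobase in MB1-47 cells and 4612 in DMSO cells, and ELOVL5 at 3673 in MB1-47 cells and 3324 in DMSO cells. By this measure ELOVL5 stood above SCD in MB1-47 cells and below it in DMSO cells. ACLY was at 2280 per kilobase in MB1-47 cells and 3603 in DMSO cells, FDPS at 1565 in MB1-47 cells and 3433 in DMSO cells, and HMGCS1 at 1849 in MB1-47 cells and 3288 in DMSO cells. The lowest were ACSL1, at 13.3 per kilobase in MB1-47 cells and 15.6 in DMSO cells, and ACSS2, at 41.9 in MB1-47 cells and 29.2 in DMSO cells.

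Genes that surround the pathway were counted from lists made with knowledge of these data. Of 12 genes for SREBP processing and sterol sensing in the endoplasmic reticulum, 3 were lower and 5 higher (25.0% and 41.7%), against 19.8% lower and 18.3% higher among all genes tested. With equal library totals 3 were lower and 6 higher, where the whole table held 2061 lower and 3336 higher. RNF145, a ubiquitin ligase that acts on the sterol machinery, was at 12846 ± 256 with MB1-47 against 5794 ± 175 with DMSO (1.15 ± 0.07, adjusted p = 1.1e-06). UBE2G2, an ubiquitin-conjugating enzyme of the same degradation system, was at 3638 ± 79.1 with MB1-47 against 6271 ± 38.3 with DMSO (-0.79 ± 0.08, adjusted p = 2e-05). Of 9 genes for sterol uptake, trafficking and esterification, 5 were higher and 1 lower (55.6% and 11.1%). VLDLR, a lipoprotein receptor, was at 10749 ± 713 with MB1-47 against 4371 ± 165 with DMSO (1.30 ± 0.08, adjusted p = 1.1e-06). SCARB1, the scavenger receptor for high-density lipoprotein, was at 573 ± 58.1 with MB1-47 against 1637 ± 152 with DMSO (-1.51 ± 0.13, adjusted p = 9e-06). Of 12 further fatty acid synthesis genes, 3 were higher and 2 lower (25.0% and 16.7%), near the shares of all genes tested. MID1IP1, an activator of acetyl-CoA carboxylase, was at 1808 ± 173 with MB1-47 against 1025 ± 134 with DMSO (0.82 ± 0.13, adjusted p = 0.0005), and SLC25A1, the mitochondrial citrate carrier, at 566 ± 96.6 with MB1-47 against 823 ± 51.0 with DMSO (-0.55 ± 0.16, adjusted p = 0.019). Of 4 matched genes of the liver X receptor (LXR) list, 1 was higher (25.0%, with 18.3% of all genes tested higher), NR1H2 (LXR beta), at 1887 ± 28.6 with MB1-47 against 1557 ± 92.0 with DMSO (0.28, adjusted p = 0.049).

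Some values may carry a counting limit. The overlaps given here are between whole gene spans, introns included, and overlap of exons was not examined. Whether the authors' counting used strand is not given in the sources used here; 27 of the 42 genes overlap an antisense gene in GENCODE 29, and 8 overlap a protein-coding one, among them ACAT2 with SOD2 and TCP1, MVK with MMAB, SREBF1 with RAI1, ACSS2 with GGT7, and FADS1 with FADS2. Pseudogenes named after the gene exist for 7 genes, 8 of them for FDPS, and reads shared with such copies may have been split.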

How the data were processed

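RNA of DND41 cells was measured in 6 libraries, 3 per group, grouped by the labels' treatment. The submitters' processing notes name kallisto 0.44.0, DESeq and the build GRCh38.p13. The deposited values are normalized counts, treated here as a signal, with 1 value per gene symbol and library. No annotation, gene summing rule or filter is given in the sources used here. Because whole reads were not recovered (57.3% to 62.4% of low values lay within 0.1 of a whole multiple), no count test was run. Values were taken as log2(value + 1), which understates changes of low genes. Genes with a mean of at least 10 were tested with limma 3.58.1 in R 4.3.3 (moderated test, intensity trend), with Benjamini-Hochberg adjustment over 13465 genes and a threshold of 0.05. The steps were tested on simulated data.

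The members and lists were chosen with earlier results of these data known. Genes given in every library were, per step, the 3 with the largest change past the threshold, called genes that went against their step, and the regulators, STARD4, LPIN1 and FASN; from surrounding lists, the 2 largest called changes with a mean of at least 50. Positions are from GENCODE 29 and promoters from RefSeq. Alternatives are in the closing section. Figures used matplotlib 3.10.9 in Python 3.11.15.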

Additional observations from a re-analysis of the deposited data

How the results depend on the processing

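Of the 23 called genes, 19 kept their call in all 15 settings, and 3 of the 19 uncalled ones passed in at least one. The settings were other pseudocounts, filters, scalings, no trend, a replicate block and each library left out. Leaving out 1 library gave 17 to 20 lower and 2 to 3 higher genes among the 42, 2132 to 2494 lower and 1973 to 2321 higher over the table, and an early minus late difference of -0.29 to -0.12. The synthesis minus desaturation and activation difference was 0.016 with quantile normalization and -0.074 to 0.090 with 1 library left out, so its sign is not fixed. Small uncalled changes turned sign: TM7SF2 0.014 with trimmed-mean factors, 0.12 with equal totals and -0.21 to 0.12 with 1 library left out; SREBF2 0.042 with quantile normalization and 0.051 with equal totals; HACD3 0.021 with quantile normalization, 0.10 with equal totals and -0.14 to 0.086 with 1 library left out; ACSL1 -0.074 with quantile normalization and -0.57 to 0.52 with 1 library left out; ELOVL1 0.064 with equal totals and -0.19 to 0.0048 with 1 library left out; HSD17B7 -0.055 to 0.16 with 1 library left out. The cause was not tested. With each gene's group mean taken off, same-numbered libraries of the groups correlated at 0.02, 0.06 and 0.01. Libraries with different numbers correlated at -0.06 to 0.03, and not every library correlated best with its own number. These ranges overlap, so the check does not decide whether the number pairs the libraries. A replicate block gave 21 lower and 2 higher members (2715 and 2531 over the table), with PMVK passing (0.0278) and LPIN1 not (0.0502). The planned count test was not run, since whole reads were not recovered. The depth is unknown, which limits the low genes most: ACSL1, ACSS2, NSDHL and MVK.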

Other observations

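Of 11 genes of the isoprenoid branches, which use farnesyl diphosphate for prenylation, dolichol and ubiquinone, 1 was lower and 2 higher (9.09% and 18.2%), against 19.8% lower and 18.3% higher among all genes tested; the median log2 fold change was -0.04. The lower one was PDSS1, a subunit of the enzyme that makes the ubiquinone tail, at 331 ± 51.0 normalized counts with MB1-47 against 1238 ± 66.1 with DMSO (-1.91 ± 0.15, adjusted p = 4.7e-06). GGPS1, geranylgeranyl diphosphate synthase, was at 2870 ± 182 with MB1-47 against 2066 ± 109 with DMSO, and RABGGTA, a subunit of the enzyme that prenylates RAB proteins, at 386 ± 40.9 with MB1-47 against 258 ± 18.5 with DMSO (0.57 ± 0.18, adjusted p = 0.029). GGPS1 was chosen after its values were seen, to complete the count.

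Of 11 tested glycerolipid genes, 2 were lower and 2 higher (18.2% each), close to the shares over all genes tested (19.8% and 18.3%). The acyltransferases AGPAT5 and AGPAT3 were lower: AGPAT5 was at 1909 ± 98.4 with MB1-47 against 3236 ± 202 with DMSO (-0.76 ± 0.10, adjusted p = 0.00011), and AGPAT3 at 3389 ± 271 with MB1-47 against 5006 ± 204 with DMSO (-0.56 ± 0.09, adjusted p = 0.00056). PNPLA2, the triglyceride lipase (0.56 ± 0.11), and LPIN2, a paralog of LPIN1 (0.42 ± 0.09), were higher and complete the count.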
